A study of Mus musculus with 2 samples.

Results

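The genes described here encode the machinery that brings secretory proteins into the endoplasmic reticulum (ER), cuts off their signal peptides and attaches their first glycans. They were 40 genes, taken by name as known subunits and enzymes, with earlier results of these data known, of 19324 genes with a probe set. A total of 97 probe sets were annotated to them, 7 of which were also annotated to another gene. All 40 genes, through 89 probe sets, passed a level filter at an intensity of 150, the median of all probe sets, which 12609 genes passed in all.

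RNA was taken from the pancreas of male C57BL/6J offspring at 10 weeks of age. The dams received either a control diet or a methionine-deficient diet in pregnancy, and from weaning at 3 weeks the offspring of both groups were given control diet. The diets thus differed before birth, with no direct treatment of the offspring. The RNA of each group was pooled, and each of the 2 pools was measured on 1 expression array, so there is no replicate and no test. The number of mice in a pool is not given in the sources used here.

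In the textbook account, the signal recognition particle binds a signal sequence as it leaves the ribosome and docks at its receptor in the ER membrane. The chain is then passed into the Sec61 channel. On the inner side, signal peptidase removes the signal sequence and oligosaccharyltransferase moves a preassembled glycan from a dolichol lipid onto asparagine residues. Acinar cells of the pancreas, which secrete digestive enzymes in bulk, are rich in rough ER and rely heavily on this route.

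Most of the 40 genes were slightly lower in the methionine-deficient pool, with differences that were mostly no larger than the noise of a probe set. Read through the brightest probe set of each gene, 28 of 40 were lower and 12 higher, and the median log2 difference of intensity (methionine-deficient minus control, 1 added to each intensity) was -0.08. Of all 12609 genes, 49.6% were lower and the median was 0.00306. Because 36 of the 40 genes lay in the brightest of 5 bins of level, they were also set against that bin. In it, 27 of 36 members were lower with a median of -0.09, against 53.4% of 3262 genes with a median of -0.01. The subunits that accompany the Sec61 channel (6 of 6 lower) and oligosaccharyltransferase (8 of 10 lower) had the lowest medians among the 5 complexes with at least 5 genes, and signal peptidase (2 of 5 lower) had a median near 0.

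The error given for a log2 difference is the probe-set spread, a robust SD of how much the probe sets of a gene differ from each other on these 2 arrays. From the dimmest to the brightest bin it was 0.78, 0.61, 0.46, 0.30 and 0.18. It covers neither mice nor arrays. The difference was within this spread for 32 of 40 members and for 66.6% of all genes. Only Tusc3, 1 of 40 members, lay beyond 2 spreads, against 968 of all 12609 genes. In the brightest bin it was 0 of 36 members, against 315 of 3262 genes. At 1.5-fold, 2 members were higher, Tusc3 and Sec61a2, against 10.4% of all genes, and 1 was lower, Tram2, against 8.71%. At 1.2-fold in the brightest bin, 2 of 36 members were lower against 10.4% of the bin's genes. At 2-fold there was no member, against 3.92% of all genes higher and 2.78% lower, and at 1.2-fold 3 members were higher and 3 lower, against 24.8% and 22.6%. The count of lower members moved with the scaling: 25 of 40 with quantile or loess scaling, where 50.1% and 49.9% of all genes were lower. It was 32 with each array's median subtracted and 37 when scaled to the poly-A spike-in controls. These both shift every gene down alike, and 56.1% and 72.2% of all genes were then lower. Srp9 and Stt3b turned higher with quantile and with loess scaling, Sec62 and Spcs2 with quantile scaling and Srp14 with loess scaling. Sec11c turned lower with quantile scaling and, with Spcs3, Sec11a and Stt3a, with the median subtracted. With spike-in scaling only Sec61a2, Tusc3 and Dpm1 remained higher. In bulk RNA, fewer cells of a type and less RNA per cell cannot be told apart.

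**Figure D1:**
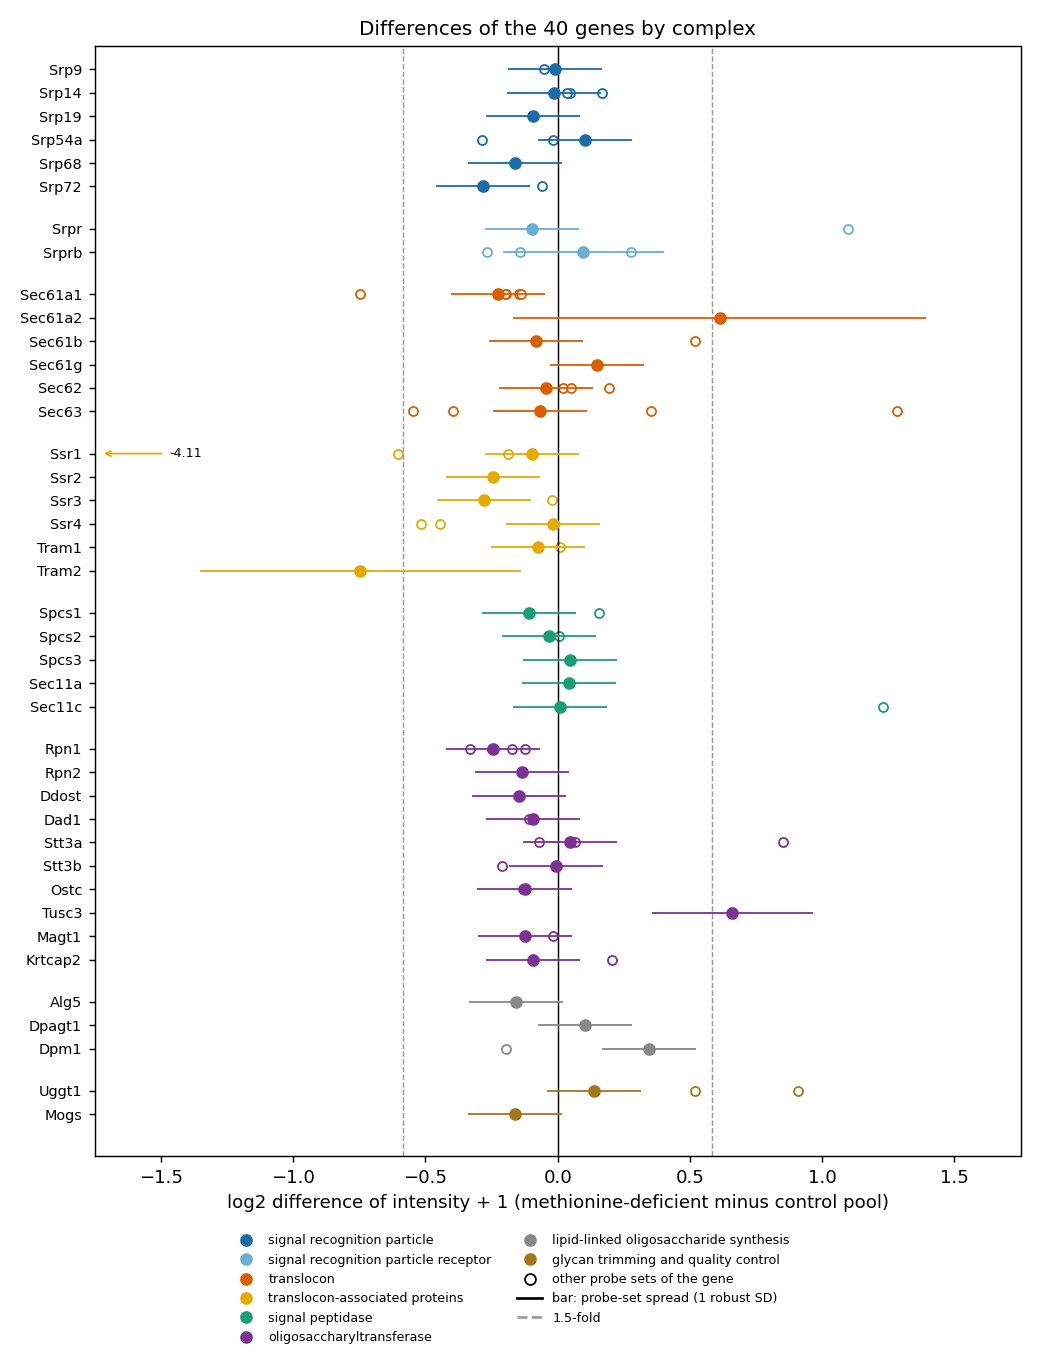
Log2 difference (methionine-deficient minus control pool) of each of the 40 genes, by complex. Filled points are the brightest probe set with a bar of 1 probe-set spread, open points are the gene's other probe sets past the level filter, and dashed lines mark 1.5-fold. An arrow marks an Ssr1 probe set at -4.11, off the axis. Most filled points lie a little left of 0, those of signal peptidase lie around 0, and Tusc3, Sec61a2 and Tram2 lie outside the dashed lines.

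The genes for the protein subunits of the signal recognition particle were close in both pools, with 5 of 6 lower and a median log2 difference of -0.05. Srp72, which with Srp68 forms a dimer on the particle's RNA, read 8099 for the control pool against 6666 for the methionine-deficient one (log2 difference -0.28, probe-set spread 0.18). Its other probe set read 6989 and 6712, a smaller difference of -0.06. Srp68 had 8048 and 7200, a log2 difference of -0.16. Srp9 and Srp14, the pair that slows elongation while the ribosome docks, had 14164 and 14059 and 7422 and 7355. The other 3 Srp14 probe sets were slightly higher, at 0.04 to 0.17, so that gene has no settled direction. Srp19, needed to assemble the particle, had 6160 and 5775. Srp54a, the GTPase subunit that holds the signal sequence, was the member on the higher side at 11616 and 12468. Its 3 probe sets, all shared with the near-identical Srp54b and 2 of them also with Srp54c, ranged from -0.29 to 0.10.

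The receptor consists of a GTPase that meets the particle, encoded by Srpr, and a membrane-anchored partner, encoded by Srprb. Srpr had 12709 for the control pool against 11873 for the methionine-deficient one, a log2 difference of -0.10 against a spread of 0.18. A much dimmer Srpr probe set went the other way, at 196 and 421. The brightest Srprb probe set, at 1301 and 1392, is also annotated to the transferrin gene Trf. The 3 probe sets of Srprb alone had log2 differences of 0.28, -0.14 and -0.27, so neither gene of the receptor had one direction across its probe sets.

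Within the translocon, Sec61a1, which forms the pore of the channel, was lower in 6 of 6 probe sets. The brightest read 12459 for the control pool against 10663 for the methionine-deficient one, a log2 difference of -0.22 beside a spread of 0.18. The next 4 lay between -0.20 and -0.14, and the dimmest, at 1078 and 642, had -0.75. Each single difference was small, and they were alike in size across the 5 brightest probe sets, which may overlap in the transcript they read. Sec61a2, a paralogue of the pore subunit, had 167 and 256, at 1.53-fold (log2 difference 0.61) inside a spread of 0.78, and its other probe set, below the level filter, had 63.0 and 64.9. The small subunit gene Sec61b had 36664 and 34612, and a probe set shared with Gm10320 had 493 and 707. Sec61g, the other small subunit, had 7206 and 7982 in its only probe set, which is shared with Gm11575 and Gm10177.

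Sec62 and Sec63 encode membrane proteins that help chains enter the channel, Sec63 through a domain that engages the chaperone BiP. Sec62 had 13797 for the control pool against 13375 for the methionine-deficient one in its brightest probe set and 12898 and 13083 in the next, with differences of opposite sign inside the spread. Its remaining 2 probe sets past the filter had 0.05 and 0.19, and the fifth, below it, read 66.5 and 186. The Sec63 probe sets disagreed. They read 3348 and 3197, 3415 and 2594, 1860 and 2373, 1044 and 714, and 789 and 1922 in the control and methionine-deficient pool. The log2 differences of these 5 ran from -0.55 to 1.28, so no direction can be given for Sec63. Over the translocon as a whole 4 of 6 genes were lower with a median of -0.06, which turned to 0.14 with the mean over probe sets.

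**Figure D2:**
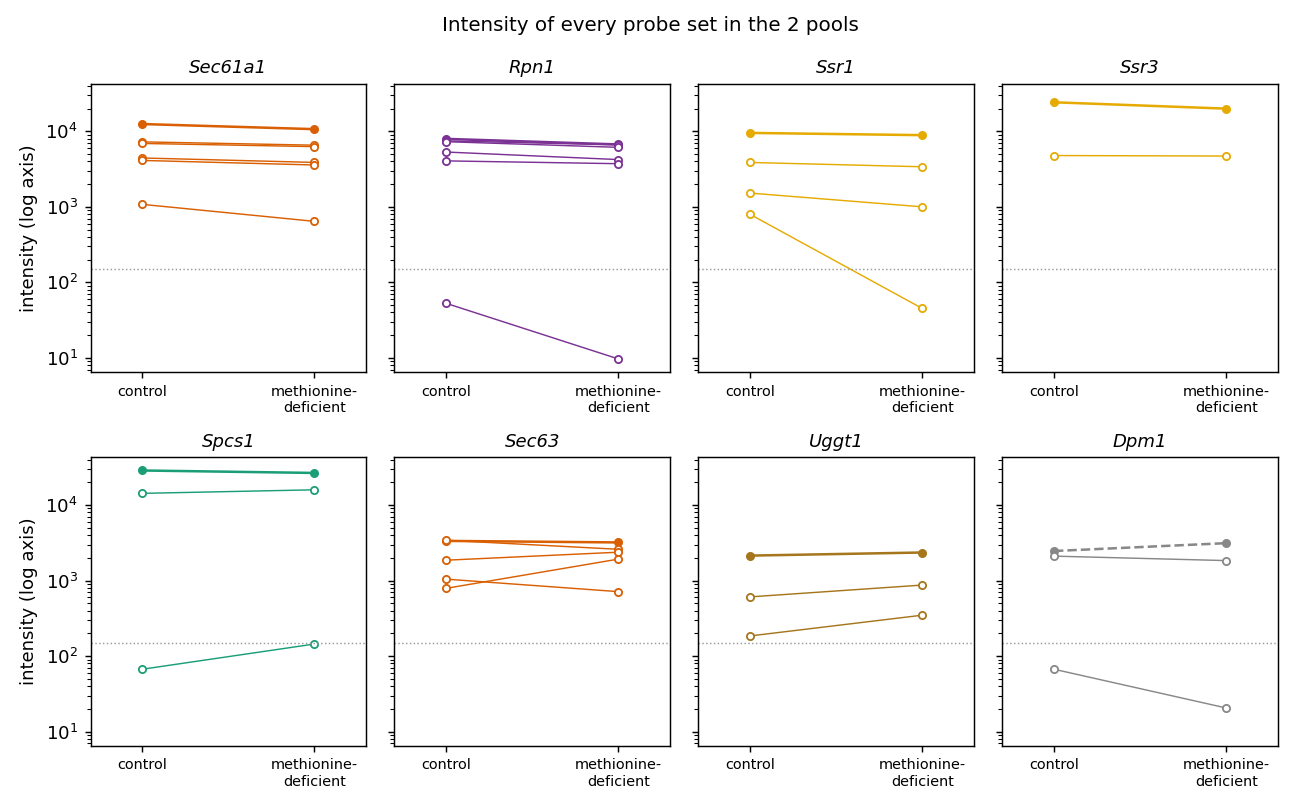
Intensity on a log axis of every probe set of 8 genes in the control and methionine-deficient pools. Filled points and thick lines are the brightest probe set, a dashed line is a probe set shared with another gene, and the dotted line is the level filter at 150. All lines of Sec61a1, Rpn1, Ssr1 and Ssr3 fall from left to right and all lines of Uggt1 rise, while those of Spcs1, Sec63 and Dpm1 cross or run opposite ways.

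The proteins that sit beside the channel were lower in 6 of 6 genes, at a median of -0.17 (log2), and 12 of 13 probe sets past the filter lower. Ssr1 to Ssr4 encode the 4 subunits of the translocon-associated protein complex, which helps certain chains enter. Ssr3 had 24172 for the control pool against 19923 for the methionine-deficient one (log2 difference -0.28, spread 0.18), and 4771 and 4699 in its other probe set. Ssr2 had 3142 and 2655, a log2 difference of -0.24, in its only probe set. Ssr1 was lower in 4 of 4 probe sets, with 9508 and 8881 in the brightest (-0.10), then -0.19 and -0.60. The fourth read 795 and 45.2, a log2 difference of -4.11 that none of the gene's other probe sets came near. Its methionine-deficient value lies below the filter intensity of 150, so it passed through the control pool where it was high. Ssr4 had 43386 and 42888 in its brightest probe set and -0.45 and -0.52 in the dimmer ones. Among the Ssr genes, then, the direction was lower in each of 10 probe sets while the size differed widely between probe sets of 1 gene.

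Tram1, which contacts signal sequences in the membrane, had 40633 and 38621, with -0.07 in its brightest probe set and 0.01 in the other. Its paralogue Tram2, linked to collagen synthesis, had 455 for the control pool against 271 for the methionine-deficient one, which is 1.68-fold lower (log2 difference -0.75, spread 0.61). Its other probe set, below the filter, read 141 and 47.1. Probe sets with names ending in _a_at, _s_at or _x_at can match several transcripts or several genes. Without them, and so without Ssr2 and Ssr3, the median of the translocon-associated group was -0.27 over 4 genes. With the mean over probe sets it was -0.29.

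Signal peptidase genes lay close to 0. Sec11a and Sec11c encode the alternative catalytic subunits. Sec11c had 25760 for the control pool against 25924 for the methionine-deficient one, and Sec11a had 4785 and 4928. The accessory subunit genes were as close: Spcs2 had 11841 and 11568, and 10619 and 10644 in its other probe set. Spcs3 had 10766 and 11110. Spcs1 had 28630 and 26571 in its brightest probe set but 14260 and 15892 in the next, log2 differences of -0.11 and 0.16. All 5 genes were within the spread, their median was 0.01, and 2 of 8 probe sets past the filter were lower. Dim probe sets of these genes gave larger differences of both signs, 118 and 279 for Sec11c, 67.0 and 145 for Spcs1 and 226 and 25.1 for Sec11a. Whether signal peptidase differs from the other complexes cannot be tested with 1 pool a group.

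Oligosaccharyltransferase genes were lower for 8 of 10 subunits (median log2 difference -0.11), and 17 of 22 probe sets past the filter were lower. Rpn1, the subunit ribophorin I that lies near the channel, was lower in 6 of 6 probe sets. Its brightest read 7929 for the control pool against 6692 for the methionine-deficient one (-0.24, spread 0.18), and the other 4 past the filter lay between -0.33 and -0.12. The sixth, below the filter, read 52.8 and 9.70. Ddost had 10605 and 9593, Rpn2 had 9367 and 8527, and Dad1 had 10442 and 9780, log2 differences of -0.14, -0.14 and -0.09 for these core subunits. Dad1 was also lower in its other probe set, at -0.11.

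The enzyme comes in 2 forms, one built on the catalytic subunit Stt3a that works at the channel and one on Stt3b that acts on sites that were missed. Stt3a had 6310 for the control pool against 6521 for the methionine-deficient one, with its next probe set on the other side at 3313 and 3151. A dim Stt3a probe set had 114 and 207 (log2 difference 0.85, spread 0.78). Its control value lies below the filter intensity, so it passed through the methionine-deficient pool, where it was higher. Stt3b had 8427 and 8385, and 3736 and 3232 in its other probe set. Ostc and Krtcap2 belong to the Stt3a form. Ostc was lower in both probe sets, with 7930 and 7269 in the brighter. Krtcap2 had 14229 and 13339 in one probe set and 8742 and 10089 in the other, of opposite sign.

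Tusc3 and Magt1 are alternative oxidoreductase subunits of the Stt3b form, and only the difference of Tusc3 lay outside its spread. Tusc3 had 1023 for the control pool against 1617 for the methionine-deficient one, 1.58-fold higher (log2 difference 0.66, spread 0.30). This was the largest of the 40 differences relative to its spread, and it rests on 1 probe set. Magt1 had 17212 and 15793, and 11105 and 10966 in its other probe set, log2 differences of -0.12 and -0.02 inside a spread of 0.18. Tusc3 stayed higher under each of the 4 other scalings.

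Enzymes around the transfer step were mixed. Dpagt1, which starts the dolichol-linked glycan, had 1668 for the control pool against 1793 for the methionine-deficient one. Alg5, which makes the dolichol-linked glucose donor, had 3761 and 3370. Dpm1, the catalytic subunit for the mannose donor, had 2461 and 3126 in a probe set that is also annotated to Adnp (log2 difference 0.35, spread 0.18). In the bright probe set of Dpm1 alone it was lower, at 2106 and 1838 (-0.20), so the higher value cannot be assigned to Dpm1. After transfer, Mogs removes the outermost glucose and Uggt1 puts a glucose back on misfolded proteins. Mogs had 3322 and 2973. Uggt1 was higher in 3 of 3 probe sets, at 2139 and 2351, 608 and 872, and 185 and 348, with log2 differences of 0.14, 0.52 and 0.91 that grew as the probe sets became dimmer and their spread wider.

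Agreement between probe sets of 1 gene was used as a description of how firm a direction is. Of the 26 members with 2 or more probe sets past the filter, 11 were lower in each of them (Srp9, Srp72, Sec61a1, Ssr1, Ssr3, Ssr4, Rpn1, Dad1, Stt3b, Ostc and Magt1), which is 42.3%, against 19.1% of 5205 genes. In the brightest probe set Srp9 had only -0.01 and Stt3b only -0.00717. Both turned higher with quantile and with loess scaling, so no firm direction follows for them. Higher in each were 2 members, Sec11c and Uggt1, against 20.0% of the genes. Sec11c rests on 0.01 in its bright probe set and on a dim one at 118 and 279. The control value of the dim one lies below the filter intensity of 150, so no firm direction follows for Sec11c. Of the 8 members with 4 or more, 3 were lower in each, Sec61a1, Ssr1 and Rpn1, against 5.6% of 803 genes. Ssr1 is among them only with its probe set at 795 and 45.2, which passed the filter through the control pool. Over all probe sets in the brightest bin 53.8% were lower, and of the members' 64 probe sets there 46 were lower. The members' other probe sets, those not used above, were lower for 29 of 49 (median -0.06), but the next brightest probe set of each gene taken alone was lower in 15 of 26 with a median of -0.02. The shares of genes with agreeing probe sets were not matched to the members for level, and most member probe sets lay in the brightest bin. Probe sets of a gene share its RNA and may overlap, so they are not replicates.

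**Figure D3:**
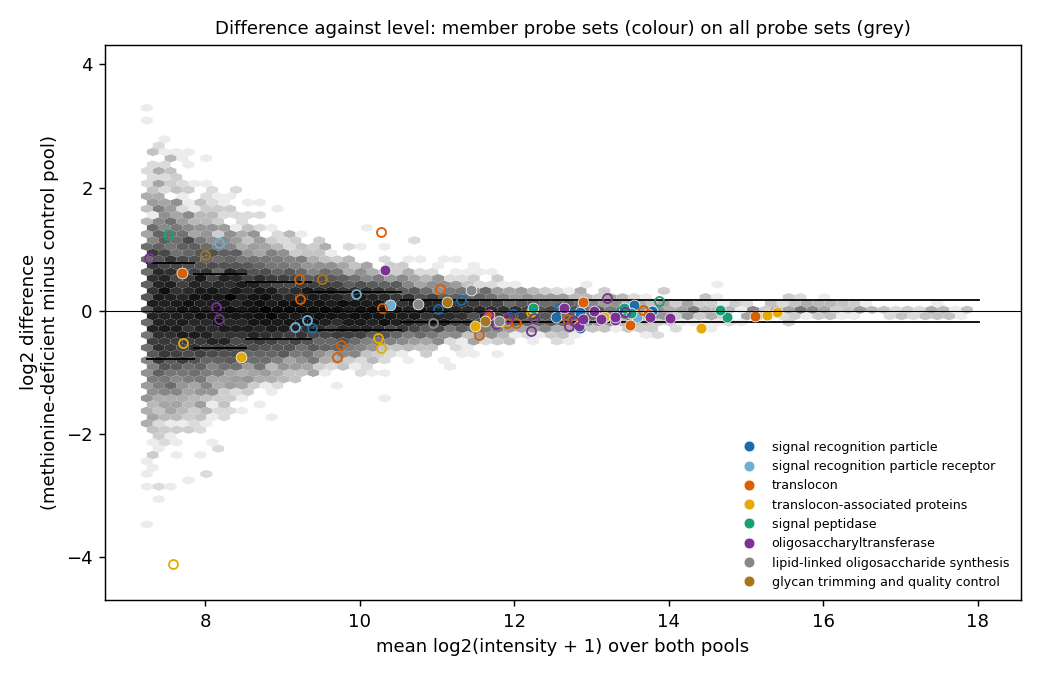
Log2 difference (methionine-deficient minus control pool) against mean log2 level for all probe sets past the filter (grey, darker where denser) and for the members' probe sets (colour; filled for the brightest of a gene, open for the others). Black steps mark 1 probe-set spread in each level bin, from 0.78 on the left to 0.18 on the right. The members' filled points crowd to the right, where the spread is narrow, and most lie just below 0 and inside the steps.

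Shown are the promoters of 3 genes that were lower in each of their probe sets. They hold matches of letters to parts of a known control element of ER genes, the ER stress element. It starts with CCAAT and ends, after 9 other bases, with CCACG, and is bound by factors of the unfolded protein response. Each is the 250 bases before the transcription start in RefSeq on GRCm38.p6, read 5′ to 3′ on the gene's strand, and capitals mark either part on either strand. They lie at chr6:88084223-88084472 on the plus strand for Rpn1, chr3:65392554-65392803 on the minus strand for Ssr3 and chr13:37994209-37994458 on the minus strand for Ssr1.
Rpn1: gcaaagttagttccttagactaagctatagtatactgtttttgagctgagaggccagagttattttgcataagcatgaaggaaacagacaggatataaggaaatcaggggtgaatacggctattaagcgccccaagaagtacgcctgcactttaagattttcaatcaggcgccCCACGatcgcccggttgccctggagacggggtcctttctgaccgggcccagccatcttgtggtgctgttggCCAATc
Ssr3: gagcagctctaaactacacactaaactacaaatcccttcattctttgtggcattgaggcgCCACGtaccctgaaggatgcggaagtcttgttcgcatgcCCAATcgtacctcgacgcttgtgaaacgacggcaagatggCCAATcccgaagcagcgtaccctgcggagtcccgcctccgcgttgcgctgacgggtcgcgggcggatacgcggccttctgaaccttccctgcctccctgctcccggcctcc
Ssr1: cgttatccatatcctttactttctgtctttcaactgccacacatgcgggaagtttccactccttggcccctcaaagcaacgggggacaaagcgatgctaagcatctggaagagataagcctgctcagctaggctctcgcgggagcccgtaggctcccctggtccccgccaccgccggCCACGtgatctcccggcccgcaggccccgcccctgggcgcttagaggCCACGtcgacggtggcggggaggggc
Of the ending part Rpn1 holds 1 copy, Ssr3 holds 1 and Ssr1 holds 2. Of the starting part Rpn1 holds 1 and Ssr3 holds 2, with none in Ssr1. In Rpn1 and Ssr3 the ending part comes before the starting part, the reverse of their order in the element. Such matches did not follow the direction of a gene. Srpr, Srprb, Sec63 and Spcs1, whose probe sets disagreed, hold 3 copies of the ending part each. Ssr4 and Srp72, lower in each of their probe sets, hold neither part.

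RefSeq windows of 300 bases, from 250 before to 50 after the start, were matched for 30 of the 40 genes, in 32 windows. On either strand CCACG was in 20 of 32 (62.5%), against 32.8% of 32851 windows of all genes and 44.8% of 12688 windows of genes past the level filter. CCAAT was in 16 (50%), against 37.4% and 37.1%. Both were in 12 of 32 (37.5%), against 11.7% and 16.3%. The whole element was in none of the 32 member windows and in 0.119% of all windows, 39 in number. TGACGT, which can overlap CCACG by shared letters, was in 4 of 32 (12.5%), against 7.51% of all windows and 11.2% of those of genes past the filter. CCGGAAGT was in 2 of 32 (6.25%), against 3.89% and 7.28%, so neither stood clearly apart from the windows of genes past the filter. The median GC content was 60% in the members' windows and in those of genes past the filter, and 52.7% over all windows. These are matches of letters and show neither binding nor a link to the differences.

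Other genes of the same pathways, in 8 lists, were lower in 48 of 71 measured cases past the filter, with a median log2 difference of -0.12, against the 49.6% lower of all genes. Of them 5 were at least 1.5-fold lower and 2 at least 1.5-fold higher (7.04% and 2.82%), neither above the 8.71% and 10.4% of all genes. The lists had been drawn up with earlier results of these data known, so they are no independent evidence of a direction. Glycan trimming and lectin chaperone genes were lower for 11 of 11 genes (median -0.22). Their largest differences were those of Man1b1, an ER mannosidase, and of Uggt2, a paralogue of Uggt1. Man1b1 had 254 for the control pool against 129 for the methionine-deficient one (-0.97, spread 0.78). That methionine-deficient value lies below the filter intensity, so Man1b1 passed through the control pool, where it was high. It is among the 5 genes counted above as at least 1.5-fold lower. Uggt2 had 314 and 224 (-0.49, spread 0.61). Chosen after their values were seen, the lectin chaperone genes Canx (19157 and 15121) and Calr (13229 and 10632) had -0.34 and -0.32, though a probe set of Calr gave 0.32. The other Canx probe sets gave only -0.03 and -0.10. Sugar nucleotide genes were lower for 7 of 10 (median -0.21). Gnpnat1, an enzyme on the way to UDP-N-acetylglucosamine, had 3321 and 2317 (-0.52, spread 0.18) and was lower in its 3 probe sets past the filter. Gmppa, a regulator of GDP-mannose synthesis, had 2378 and 3779 (0.67, spread 0.18), but its other 3 probe sets past the filter lay between 0.00256 and 0.09.

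Genes that insert tail-anchored proteins were lower for 4 of 6 (median -0.39). Their targeting ATPase Get3 had 2437 for the control pool against 1593 for the methionine-deficient one, 1.53-fold lower (-0.61, spread 0.18) in 1 probe set, and Bag6, which hands them substrates, had 330 and 228. Other genes of dolichol and glycan assembly were lower for 11 of 17 (median -0.03). Among them Dolpp1, which recycles the dolichol carrier, had 398 and 207 (-0.94, spread 0.61) and Srd5a3, needed to make dolichol, had 919 and 482 (-0.93, spread 0.30), though its 5 probe sets ran from -0.93 to 0.89. The ER membrane protein complex, another insertase, was lower for 6 of 10 (median -0.05), with Emc8 at 0.40 and Emc10 at -0.40. The multipass translocon and other partners were lower for 7 of 12 (median -0.02), with the co-chaperone gene Dnajc1 at 0.46 and the chaperone gene Hyou1 at -0.40. The remaining oligosaccharyltransferase genes had 0.08 for Ost4 and -0.23 for Tmem258, whose other probe set gave 0.33. Of the 3 signal peptide peptidase genes, Sppl2b had 676 and 104 (-2.68, spread 0.61) in 1 probe set, and Sppl2a had 0.09. The methionine-deficient value of Sppl2b lies below the filter intensity, so it passed through the control pool, where it was high. Like Man1b1, Sppl2b is among the lower genes counted above.

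**Figure D4:**
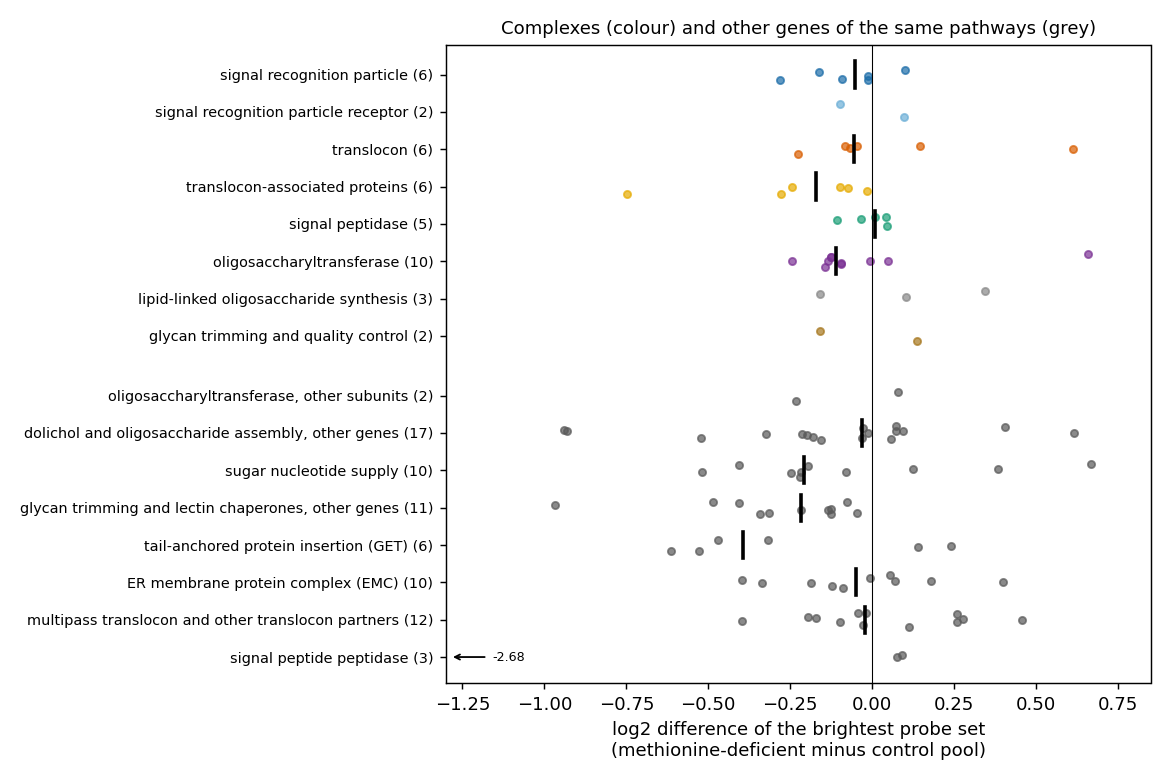
Log2 difference (methionine-deficient minus control pool) of the brightest probe set of each gene past the filter, for the complexes (colour) and other genes of the same pathways (grey), with the number of genes in brackets. Black lines are medians of groups with at least 5 genes, the vertical placement of points within a group has no meaning, and an arrow marks Sppl2b at -2.68, off the axis. The translocon-associated, oligosaccharyltransferase, sugar nucleotide, glycan trimming and tail-anchor groups have medians below -0.10, and signal peptidase sits at 0.01.

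Markers of the cells in the tissue were set beside these values. The acinar markers were lower in 8 of 14 cases past the filter with a median of -0.03, and their summed intensity was 1878940 for the control pool against 1853530 for the methionine-deficient one, led by Prss2 and Cel. The 10 enzyme genes among them lay between -0.12 and 0.04 at intensities of 126396 to 248933, near the highest on the arrays (263446 and 266191). The 4 transcription factor genes had -0.32 for Ptf1a (15390 and 12350), -0.24 for Rbpjl (4659 and 3950), 0.16 for Bhlha15 and 0.09 for Nr5a2. Islet markers, led by Ins2 and Iapp, had a median of -0.03 with sums of 175711 and 183273, duct markers, led by Krt8 and Krt18, had -0.06 with sums of 33180 and 30751, and macrophage markers, led by Lyz2 and Csf1r, had -0.01 with sums of 9092 and 10534. Of the islet genes 6 of 10 were lower, among them Slc2a2 at -0.52 (spread 0.46) and Chga at -0.21 (spread 0.18). On the higher side Gcg had 0.39 (spread 0.18) and Pdx1 had 0.60 (spread 0.46). Of the duct genes 4 of 7 were lower. These were Krt18 at -0.28, Epcam at -0.16, Krt8 at -0.08 and Muc1 at -0.06, each beside a spread of 0.18. The other 3 were higher, Krt7 at 0.74 and Sox9 at 0.62 beside a spread of 0.61, and Krt19 at 0.19 beside 0.30. The macrophage list ran both ways, from -0.19 for Cd68 to 0.46 for C1qb and 1.01 for C1qa (1181 and 2381). B cell and plasma cell markers were lower for 8 of 9 (median -0.42), with sums of 84781 and 77155, led by Xbp1 and Derl3, which acinar cells also express. Pou2af1 and Tnfrsf17 of that list were below the filter. The brightest probe set of the antibody gene Ighm, picked because of its difference, read 5210 and 2243. Adipocyte markers, led by Fabp4 and Adipoq, were lower in 4 of 4 cases with sums of 16293 and 13306. Cidec had 604 and 200 (-1.59, spread 0.61) and Pck1 had 936 and 317 (-1.56, spread 0.46), while another bright Fabp4 probe set went the other way at 3855 and 6807. Another Pck1 probe set past the filter was not lower, at 365 and 388 (0.08). These genes and the acinar, islet, duct and macrophage genes outside the leading ones were named after their values were seen. Plasma cells are rich in the same ER machinery, and the part of these cells in the members' values was not tested. RNA integrity was read from the 3′ over 5′ signal of control transcripts, which was 1.46 and 1.76 for Actb and 0.973 and 1.11 for Gapdh, and its part was not tested.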

How the data were processed

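The authors deposited linear intensities per probe set for 2 arrays, each of 1 pool per group, made from biotin-labelled cRNA per the labels' protocols. The sources used here name no program, background correction or scaling. Both arrays had a mean of 500.003 after trimming 2% at each end, and a median of 165 (control) and 171 (methionine-deficient). No detection calls were used, and the number of arrays limits the precision.

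Differences were taken on log2(intensity + 1). Probe sets were named through the platform annotation of 2016, with symbols updated through RefSeq, and a probe set with several symbols counted for each. Each gene was read through its brightest probe set (mean of both arrays), kept if it reached the median of all probe sets outside the array controls. Counts use 1.5-fold. The spread was taken, in 5 level bins, from how far adjacent-level probe sets of the same gene differ, and when tested on simulated data came out low in the brightest bin, so counts within the spread there may be too small. Complexes with fewer than 5 genes were given no median. All 40 members are named, and of each other list the 2 genes with the largest difference or, for markers, the highest level. Members and lists were chosen with earlier results of these data known. Some listed genes were not analysed here, and a planned comparison of paralogue proteins was not run. Alternatives were 4 scalings, a pseudocount of 16, other filters, other ways to read a gene and other folds. Python 3.11.15, numpy 2.4.6 and statsmodels 0.14.6 were used.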

Additional observations from a re-analysis of the deposited data

Results flagged for a closer look

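The poly-A spike-in control probe sets, which lie outside the members' comparison, were higher in the methionine-deficient pool, at a median of 0.18 on the log2 scale, with 23 of 24 probe sets higher, while the hybridization controls had -0.02. Scaling to the former is among the alternatives below.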

How the results depend on the processing

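With 1 pool a group there is no replicate to leave out. The median of all genes was 0.00306 as deposited, and -0.22 with poly-A spike-in scaling. That scaling gave medians of -0.30 for the members, -0.27 for the signal recognition particle, -0.27 for the translocon, -0.39 for the translocon-associated proteins, -0.21 for signal peptidase and -0.33 for oligosaccharyltransferase. Relative to the median of all genes, the members' median lay at -0.08 as deposited. Spike-in scaling and median centring leave that value the same by arithmetic. It was -0.047 with quantile scaling, -0.069 with loess scaling, -0.039 with the mean over probe sets and -0.023 from the next brightest probe sets. Signal peptidase had -0.043 with median centring, which like spike-in scaling shifts every gene alike, and 0.16 from the next brightest probe sets, over 3 genes. The members' median was -0.13 with median centring, -0.048 with quantile scaling, -0.032 with the mean over probe sets, -0.020 from the next brightest probe sets and -0.040 as a mean in place of a median. The translocon turned to 0.14 with the mean over probe sets, where the translocon-associated proteins had -0.29. These proteins had -0.27 without probe sets whose names end in _a_at, _s_at or _x_at. Members counted lower were 15 of 26 from the next brightest probe sets. Members at least 1.5-fold higher were 1 with median centring, quantile or loess scaling, a pseudocount of 16 or the 75th percentile filter, and 0 with spike-in scaling. Members at least 1.5-fold lower were 0 with that filter or from the next brightest probe sets and 2 with the mean over probe sets. In the brightest probe set no member reached 2-fold in either direction (0 and 0), and 3 were at least 1.2-fold higher and 3 lower. Past 2-fold were Ssr1 at -1.25 with the mean over probe sets, and Srpr at 1.10 and Sec11c at 1.23 from the next brightest. Of 412 values of single members under the alternatives, 351 moved by no more than the spread of the probe set and 61 by more. Restricting to the brightest level bin was added after seeing the data.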

Other observations

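Some dim probe sets of the members differed far more than the bright ones of the same gene. Ssr1 had 795 for the control pool against 45.2 for the methionine-deficient one in a probe set whose gene differed by -0.10 in its brightest, and Sec11a had 226 and 25.1 beside 0.04. Sec63 had 789 and 1922 in a probe set well past the filter, with a log2 difference of 1.28 beside a spread of 0.30, while another Sec63 probe set of like level had 1044 and 714.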
